A study of Mus musculus with 2 samples.

Results

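Mir128, Mir129, Mir138 and Mir218 are neuronal microRNAs that the mouse genome encodes at 2 loci each, numbered -1 and -2. The members described here are these 8 genes of the 2202 miRNA genes counted, chosen by symbol in GENCODE M21 and not by their values. Short RNA of hippocampus was sequenced. The donors were B6CASTF1/J females, 25 days old, the first-generation cross of C57BL/6J and CAST/EiJ. There was a single group with 2 biological replicates and 1 library each, no treatment, and no engineered allele in the labels. The labels speak of a layer of the hippocampus without naming it, and they list both samples under a single donor record, so the 2 libraries measure the spread between these tissue samples only. Reads assigned to miRNA genes numbered 5481053 in replicate 1 and 4266963 in replicate 2. All 10 neuron-enriched miRNA genes listed as tissue markers were detected, at 2 CPM (gene counts scaled to a common library total of 1e6) or more in each library, whereas the caudal and striated muscle lists had 2 of 5 and 1 of 5 genes detected. Every gene of the oligodendrocyte, microglial and immune, endothelial and mural, erythroid, and choroid plexus and ciliated lists was detected too, and 4 of 5 epithelial genes. Detection thus does not set the neuron list apart from these. In whole tissue, fewer cells of a type and less RNA per cell cannot be told apart.

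A miRNA hairpin is cut into a duplex of opposite arms, and the loaded arm guides Argonaute to messenger RNAs through its seed, bases 2 to 8. When a genome holds a miRNA at separate loci, the guide arm is usually the same while the partner arm and the flanks have drifted, and each locus has its own promoter or host gene. miR-128 is among the most abundant miRNAs of brain neurons and restrains neuronal excitability. miR-138 limits dendritic spine size through the depalmitoylating enzyme Lypla1, miR-129 represses the potassium channel Kcna1, and miR-218 is best known from motor neurons and from targeting the Slit receptor Robo1.

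The arm that carries each family's name is identical in both copies. It is printed here because a read holding only this sequence matches both loci and cannot be counted for either, with the seed in capitals (5′ to 3′, RefSeq, GRCm38.p6).
mmu-miR-128-3p: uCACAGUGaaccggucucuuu
mmu-miR-129-5p: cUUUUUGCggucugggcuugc
mmu-miR-138-5p: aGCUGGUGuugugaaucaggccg
mmu-miR-218-5p: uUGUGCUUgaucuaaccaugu

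All 8 members matched a RefSeq hairpin at the coordinates of GENCODE, with 11 different mature arm names. The seeds of miR-128-3p, miR-129-5p and miR-138-5p occur in no other mature arm of that table, and the seed of miR-218-5p is shared with miR-7002-3p. The opposite arms differ between copies and are shown, again with the seed in capitals, because a read with a base at which the copies differ can be placed at a single copy.
mmu-miR-128-1-5p: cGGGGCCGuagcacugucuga
mmu-miR-128-2-5p: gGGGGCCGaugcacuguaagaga
mmu-miR-129-2-3p: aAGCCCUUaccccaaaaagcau
mmu-miR-138-1-3p: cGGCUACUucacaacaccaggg
mmu-miR-138-2-3p: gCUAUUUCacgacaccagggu
mmu-miR-218-1-3p: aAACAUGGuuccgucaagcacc
mmu-miR-218-2-3p: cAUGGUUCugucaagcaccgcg

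The opposite arms of Mir128 kept the same seed in both copies, and those of Mir138 and Mir218 have different seeds. In Mir138 and Mir218 the annotated arms start at different points of the matching sequence, which by itself shifts the seed. The longest stretch in common was 7 bases for the Mir128 opposite arms, 9 for Mir138 and 10 for Mir218. For Mir129 the RefSeq annotation used here gives an opposite arm in a single copy, so it was compared with the other hairpin, a measure unlike these stretches. Against miR-129-2-3p, the Mir129-1 hairpin has a stretch of the same length, 22 bases, with the single substitution C20U, counted from 1 at the 5′ end of miR-129-2-3p. A read of this arm that ends before that position matches both copies.

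How far a shared arm must be extended to tell the copies apart differed between the pairs. The Mir128 and Mir129 hairpins are printed as the contrasting cases, with the longest stretch identical in both copies in capitals.
Mir128-1: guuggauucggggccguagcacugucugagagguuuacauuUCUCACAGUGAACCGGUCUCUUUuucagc
Mir128-2: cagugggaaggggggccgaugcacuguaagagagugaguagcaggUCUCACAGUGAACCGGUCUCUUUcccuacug
Mir129-1: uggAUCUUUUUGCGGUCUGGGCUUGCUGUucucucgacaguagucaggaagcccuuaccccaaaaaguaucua
Mir129-2: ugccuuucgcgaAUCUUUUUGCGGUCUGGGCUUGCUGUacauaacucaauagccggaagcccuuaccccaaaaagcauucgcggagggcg

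Past the 3′ end of miR-128-3p and of miR-138-5p the copies differ at the next base. It is U in Mir128-1 and C in Mir128-2, and U in Mir138-1 and A in Mir138-2. Past miR-218-5p they share 1 base, and past miR-129-5p they share 3. Before the 5′ end of the arm they share 2 bases in Mir128 and in Mir129, 1 in Mir138 and 0 in Mir218. With the arm included, the identical run was 23 bases in Mir128, 26 in Mir129, 24 in Mir138 and 22 in Mir218. Of all windows of 22 bases in a hairpin, those absent from the other copy made up 90.4% in Mir129-1 and 92.8% in Mir129-2, the lowest shares. They made up 95.9% and 96.4% in Mir128-1 and Mir128-2, 96.2% and 94.0% in Mir138-1 and Mir138-2, and 98.9% in each Mir218 copy. The tables tally reads that match several places apart from the genes. As far as the reference sequence goes, the gene counts are thus of reads that hold a base at which the copies differ, and they do not say from which arm. For a shared arm, that base lies outside the arm, before its 5′ end or past its 3′ end. Copy ratios and shares below are of these placed reads only. Whether they follow the output of each locus was not tested. The sources used here do not give how reads were trimmed or assigned. Whether each read came from the copy it was placed at thus cannot be told.

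**Figure D1:**
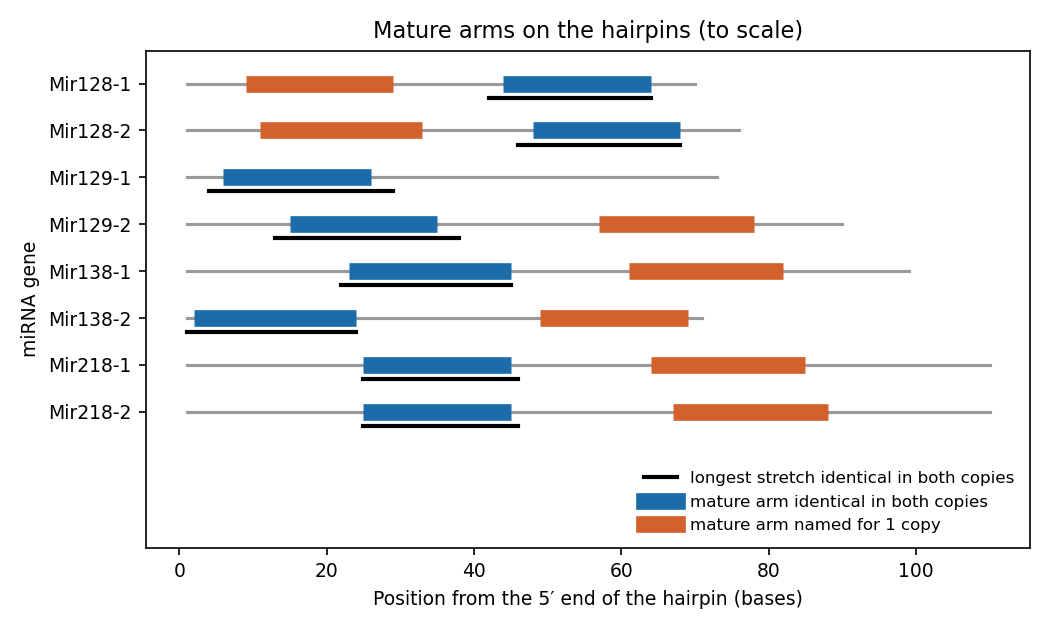
Position of the annotated mature arms on each hairpin, in bases from its 5′ end, for the 8 genes. Blue bars are arms identical in both copies, orange bars are arms named for a single copy, and the black line under each hairpin is the longest identical stretch, from 22 bases in Mir218 to 26 in Mir129.

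The copies of each pair lie on different chromosomes and in different host genes (mm10, coordinates counted from 1). Mir128-1 (ENSMUSG00000065520.2, chr1:128202361-128202430) lies in an intron of R3hdm1, and Mir128-2 (ENSMUSG00000065441.2, chr9:112118636-112118711) in an intron of Arpp21, which encodes a cyclic-AMP-regulated phosphoprotein of neurons. Mir218-1 (ENSMUSG00000065603.1, chr5:48223942-48224051) and Mir218-2 (ENSMUSG00000065583.1, chr11:35616816-35616925) lie in introns of the axon guidance genes Slit2 and Slit3. Mir129-1 (ENSMUSG00000065469.1, chr6:29022619-29022691) is in an exon of the lincRNA Gm3294, and Mir129-2 (ENSMUSG00000065511.1, chr2:94241364-94241453) is in an intron of Mir670hg and overlaps Mir129b on the other strand. Mir138-1 (ENSMUSG00000065414.1, chr9:122682876-122682974) is in an exon of the transcribed pseudogene Gm47135, and Mir138-2 (ENSMUSG00000065512.3, chr8:94324311-94324381) in an exon of the lincRNA C78859. Each host named here is transcribed from the strand of its miRNA.

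All 8 genes were detected, and together they held 2.56% of the miRNA gene counts in replicate 1 and 3.22% in replicate 2. Levels are CPM over all gene rows, with no scaling for length, since a short read covers a single arm whatever the hairpin's length of 70 to 110 bases.

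Mir128 was the most abundant pair. Mir128-1 had 11606 CPM in the first library and 21819 in the second, a mean of 16713 ± 7221 (SD, n = 2). It ranked 20th and 9th of all miRNA genes. Mir128-2 was at 2470 and 6393 CPM, or 4431 ± 2774. Both copies were higher in replicate 2, and the ranges of the copies did not overlap.

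Mir138 followed, with copy 1 again the higher. Mir138-1 was at 6200 CPM in replicate 1 and 2590 in replicate 2 (4395 ± 2553, SD, n = 2). Mir138-2 was at 2920 and 894 CPM (1907 ± 1433). Copy 1 was higher within each library, but the ranges over the libraries overlapped, because Mir138-2 in replicate 1 stood above Mir138-1 in replicate 2.

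In Mir129 and Mir218 copy 2 was the higher. Mir129-2 was at 1867 CPM in replicate 1 and 348 in replicate 2 (1108 ± 1074, SD, n = 2), and Mir129-1 at 321 and 89.8 (205 ± 163). Both copies were lower in replicate 2, and their ranges did not overlap, though Mir129-2 in replicate 2 lay close above Mir129-1 in replicate 1. Mir218-2 was at 206 and 61.4 CPM (134 ± 102), and Mir218-1 at 22.6 and 7.73 (15.2 ± 10.5), from 124 and 33 counts. The Mir218 copies, the least abundant of the 8, were also both lower in replicate 2 with ranges that did not overlap. Copy ranges were just as separate in the 6 other 2-copy pairs with the highest summed CPM (Mirlet7c, Mir125b, Mir181b, Mirlet7f, Mir219a and Mir92). Ranges that do not overlap thus do not set Mir128, Mir129 and Mir218 apart. Their share over all pairs was not counted.

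By mean CPM the order was Mir128-1, Mir128-2, Mir138-1, Mir138-2, Mir129-2, Mir129-1, Mir218-2 and Mir218-1. Neighbours in this order overlapped over the libraries for Mir128-2 and Mir138-1, for Mir138-1 and Mir138-2, for Mir138-2 and Mir129-2, and for Mir129-1 and Mir218-2. Both libraries gave the same order, except that in replicate 1 Mir128-2 stood below both Mir138 copies. Summed over the copies, the pairs were at 21144 ± 9995 CPM for Mir128, 6303 ± 3986 for Mir138, 1313 ± 1237 for Mir129 and 149 ± 113 for Mir218 (SD, n = 2). These sums leave out every read that matches both copies. Reads that matched several places made up 41.9% of all reads in replicate 1 and 46.4% in replicate 2, over all miRNAs and other sequences. The sums are no measure of the whole of a miRNA.

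**Figure D2:**
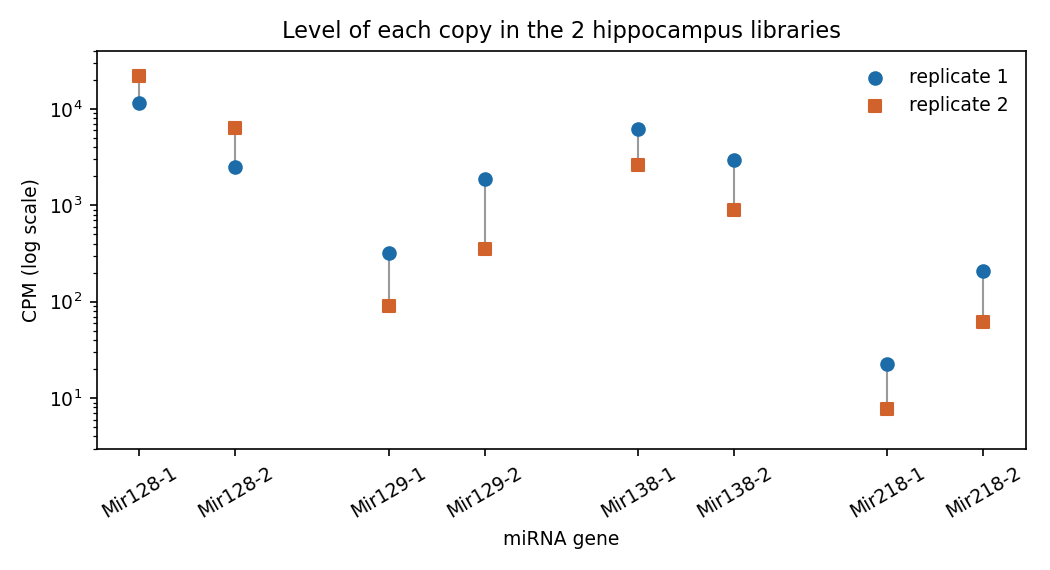
CPM of each gene on a log axis in replicate 1 (blue circles) and replicate 2 (orange squares), joined by a line. Both Mir128 genes are higher in replicate 2, the 6 genes of Mir129, Mir138 and Mir218 are lower, and levels run from 7.73 CPM for Mir218-1 to 21819 for Mir128-1.

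The first comparison asks how unequal the counts of the copies are, beyond the spread of copy ratios between the replicates. The ratio of copy 1 to copy 2 was fitted with edgeR's quasi-likelihood test over the 24 such pairs of the annotation with at least 10 counts, with the library as a block and Benjamini-Hochberg adjustment. The test draws on the spread of all pairs together, so an SE is not the spread of its own pair. For Mir218 the SE was 0.30, and the SD of its log2 ratio between the libraries was 0.15. Mir128 favoured copy 1 and Mir129 and Mir218 favoured copy 2 by amounts that passed the test. Those 3 of 4 pairs stand beside 11 of all 24 pairs that passed, or 45.8%.

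Mir128-1 had 63615 counts to 13539 for Mir128-2 in replicate 1, 4.70-fold more, and 93100 to 27278 in replicate 2, 3.41-fold more. The edgeR log2 ratio of copy 1 over copy 2 was 2.00 ± 0.32 (SE), a fold of 4.00, with adjusted p = 0.0378. Mir129-2 had 10232 counts to 1759 for Mir129-1 in replicate 1 (5.82-fold) and 1486 to 383 in replicate 2 (3.88-fold). The log2 ratio was -2.25 ± 0.34 (edgeR adjusted p = 0.0378), so copy 2 was 4.75-fold higher. In both pairs the same copy led in each library, and the lead was larger in replicate 1.

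Mir218 was the most unequal of the 4 pairs. Mir218-2 had 1131 counts to 124 for Mir218-1 in replicate 1 and 262 to 33 in replicate 2, 9.12-fold and 7.94-fold more. Its log2 ratio was -3.09 ± 0.30 (edgeR adjusted p = 0.0303), or 8.50-fold in favour of copy 2.

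Mir138 was the least unequal. Mir138-1 had 33985 counts to 16007 for Mir138-2 in replicate 1 and 11051 to 3816 in replicate 2, 2.12-fold and 2.90-fold more. The log2 ratio of 1.31 ± 0.31 missed the threshold (edgeR adjusted p = 0.0606). Copy 1 was higher in 2 of 2 libraries, but the same copy led in both libraries in 21 of all 24 pairs. The Mir138 ratio passed with DESeq2 (adjusted p = 0.037) and with counts taken without strand (edgeR adjusted p = 0.0356). Per annotated base, which allows for the longer Mir138-1 hairpin of 99 bases against 71, it was 0.83 (edgeR adjusted p = 0.132). The other 3 pairs kept their direction and passed per base as well, with Mir128 at 2.12 and Mir129 at -1.95.

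The size of these ratios was ordinary among 2-copy pairs. The median absolute log2 ratio was 2.12 over the 4 pairs and 2.23 over all 24. Among the 6 other pairs with the most counts, Mirlet7f-2 exceeded Mirlet7f-1 23.5-fold, Mir181b-2 exceeded Mir181b-1 113-fold, Mirlet7c-2 exceeded Mirlet7c-1 3.78-fold and Mir92-1 exceeded Mir92-2 50.1-fold, all past the edgeR threshold. Mir125b (log2 ratio 2.22 ± 0.64, adjusted p = 0.0856) and Mir219a (-4.86 ± 3.67, adjusted p = 0.342) did not pass it. Pairs are not all independent, since some lie side by side in a cluster, such as Mir181a and Mir181b. For the Mir129 pair the strand matters: because Mir129b overlaps Mir129-2, the column without strand keeps only 11 and 2 counts of Mir129-2, and its log2 ratio turns to 7.38. The count of passing pairs was 19 with DESeq2 and 5 without the library block, and without the block none of the 4 pairs passed (adjusted p from 0.113 to 0.344).

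**Figure D3:**
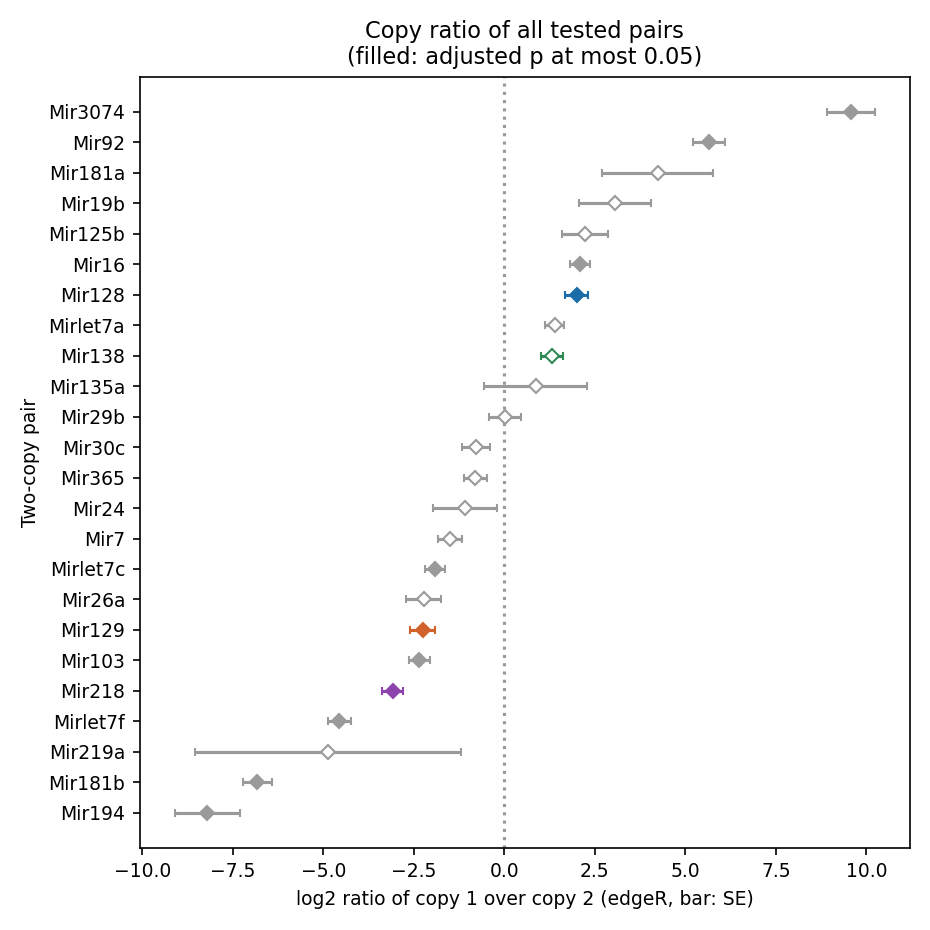
log2 ratio of copy 1 over copy 2 with its SE, from edgeR, for all 24 pairs tested; filled diamonds have an adjusted p of at most 0.05. Mir128 (2.00), Mir129 (-2.25), Mir138 (1.31) and Mir218 (-3.09) are coloured and lie within the range of the other pairs.

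The second comparison asks whether the balance between copies was the same in both libraries. A share within a pair does not depend on how libraries are scaled. Fisher's exact test was run on the same 24 pairs. Because each side is a single library, it compares these libraries and covers counting error only. The share passed for 3 of the 4 pairs (all but Mir218) and for 15 of all 24, or 62.5%.

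Mir128-1 supplied 82.5% of its pair's counts in replicate 1 (exact 95% interval 82.2 to 82.7) against 77.3% in replicate 2 (77.1 to 77.6), 79.9% ± 3.61 (SD, n = 2) in the mean. The difference of -5.11 percentage points passed Fisher's exact test (adjusted p = 9.23e-167). Mir129-1 supplied 14.7% (14.0 to 15.3) and 20.5% (18.7 to 22.4), a rise of 5.82 points (Fisher's exact test, adjusted p = 9.25e-10). Mir138-1 supplied 68.0% (67.6 to 68.4) and 74.3% (73.6 to 75.0), a rise of 6.35 points (Fisher's exact test, adjusted p = 1.02e-49). In each pair the intervals stayed on the same side of equal shares. As a log2 ratio of copy 1 over copy 2, Mir138 went from 1.09 in replicate 1 to 1.53 in replicate 2.

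Mir218-1 supplied 9.88% (8.29 to 11.7) of its pair in replicate 1 and 11.2% (7.83 to 15.4) in replicate 2. The intervals overlapped, and the difference of 1.31 points did not pass (Fisher's exact test, adjusted p = 0.698). The odds ratio of replicate 2 over replicate 1 was 1.15 with a 95% interval of 0.740 to 1.74, from 33 counts of Mir218-1 in replicate 2. That interval includes the whole of the Mir129 interval (1.32 to 1.70), so a shift of that size is not excluded for Mir218.

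**Figure D4:**
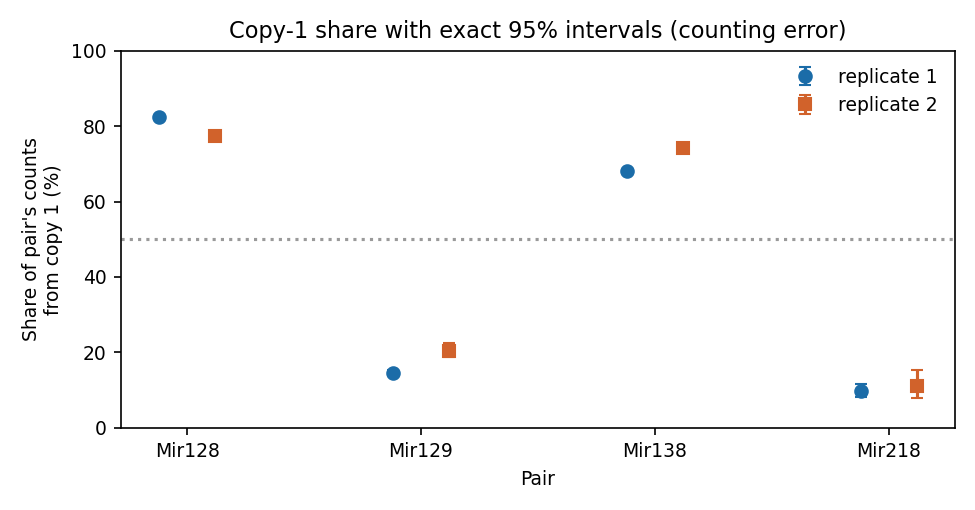
Percentage of a pair's counts that came from copy 1 in replicate 1 (blue circles) and replicate 2 (orange squares), with exact 95% intervals for counting error; the dotted line marks equal shares. Mir128 and Mir138 lie above the line in both libraries and Mir129 and Mir218 below it, with shifts of 1.31 to 6.35 percentage points between libraries.

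The third comparison sets each gene's level in replicate 2 against replicate 1, by an exact binomial test over the 579 genes with at least 10 counts. Both copies of Mir128 were higher in replicate 2, and both copies of Mir129, Mir138 and Mir218 were lower. All 8 genes passed, 2 higher and 6 lower. Of all genes tested 68.9% passed, 42.0% higher and 26.9% lower, so passing by itself does not set the members apart. Of the genes that passed 60.9% were higher in replicate 2, or 49.5% with TMM scaling and 49.0% with DESeq2 size factors. These scalings lower the median log2 ratio of detected genes from 0.27 to -0.01 and -0.02, and the direction of all 8 members was the same with either.

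Mir128-1 was 1.88-fold (95% interval 1.86 to 1.90) and Mir128-2 2.59-fold (2.54 to 2.64) higher in replicate 2. Mir129-1 was 3.58-fold (3.20 to 4.00) and Mir129-2 5.36-fold (5.08 to 5.66) lower. The drop of Mir138-1 was 2.39-fold (2.34 to 2.45), and that of Mir138-2 3.27-fold (3.15 to 3.38). Mir218-1 was 2.93-fold (1.98 to 4.44) and Mir218-2 3.36-fold (2.94 to 3.86) lower. The median absolute log2 ratio of the 8 genes was 1.57, against 0.85 over all genes tested. It was also 1.57 over the 10 other neuron-enriched genes. These log2 ratios are of CPM + 1, and the sets were not matched for level.

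The copies of each pair moved in the same direction in 4 of 4 pairs and in 17 of the 20 other pairs tested. The copies of Mir181a and Mir219a moved in opposite directions. Mir3074 was scored as not agreeing because its copy 2 had 0 counts in both libraries. Mir194 and Mir19b agreed through a copy near the floor, with 0 counts in replicate 1 and 1 and 5 counts in replicate 2. The log2 copy ratio changed between libraries by 0.21 in Mir218, 0.45 in Mir138, 0.46 in Mir128 and 0.59 in Mir129, without regard to sign. Over all 24 pairs the median change was 0.67 and the range 0.04 to 7.51, with the largest in Mir219a, known from oligodendrocytes. The 4 pairs ranked 6th, 8th, 9th and 12th of 24 from the smallest change. Their difference from the other pairs was not tested.

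The 10 other neuron-enriched genes did not share a direction. Of these, 7 were higher in replicate 2 and 3 lower, and all 10 passed, but Mir487b (15302 and 17234 CPM), at a log2 ratio of 0.17, turned to -0.11 with TMM scaling, -0.13 with DESeq2 size factors and -0.012 with all reads as the total. The activity-induced Mir132 fell from 17142 to 4038 CPM and its neighbour Mir212 from 539 to 140. Mir485 went from 4422 to 1188 CPM. Mir137 rose from 5321 to 14089 CPM, Mir149 from 13509 to 32894, Mir134 from 459 to 1532 and Mir153 from 96.3 to 322. Mir383 (1253 and 1755 CPM) and Mir488 (267 and 436 CPM) were higher by less.

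Markers of other cells moved between the same libraries. The summed CPM of the 5 epithelial genes was 72.4 in replicate 1 and 5824 in replicate 2, and that of the 4 choroid plexus and ciliated genes 981 and 2302. The 3 oligodendrocyte genes were at 6503 and 939, the 3 endothelial and mural genes at 21958 and 12895, the 5 microglial and immune genes at 1986 and 1099, and the 3 erythroid genes at 88.1 and 65.9. Not every gene moved with its list's sum. In the immune list Mir142 (42.9 and 98.2 CPM), Mir155 (37.6 and 79.0) and Mir223 (9.30 and 25.1) were higher in replicate 2, and Mir146 and Mir150 were lower. Mir486 (21.9 and 43.1) of the erythroid list and Mir219a-1 (12.4 and 54.8) of the oligodendrocyte list were higher, and the other genes of those lists lower. The caudal list was at 15.7 and 51.3, with Mir196a-1 at 0 in both libraries, and the striated muscle list at 26.8 and 38.2, with Mir1a-1, Mir133a-1 and Mir133a-2 at 0. The part of these markers in the members' differences was not tested.

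**Figure D5:**
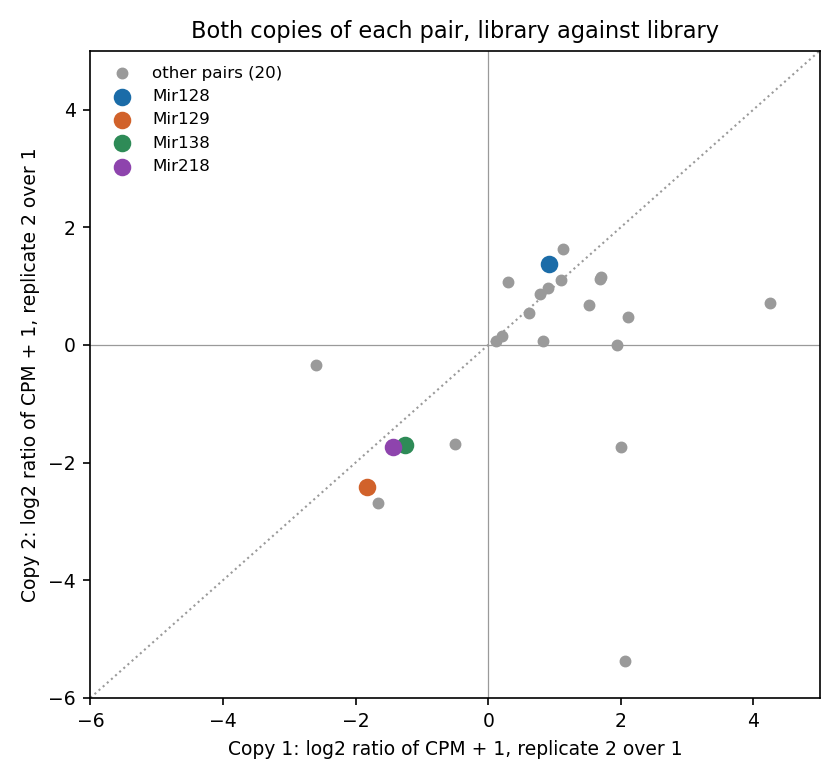
log2 ratio of CPM + 1, replicate 2 over replicate 1, of copy 1 (x axis) and copy 2 (y axis) for each of the 24 pairs; the dotted diagonal marks equal ratios. Mir128 lies in the upper right quadrant and Mir129, Mir138 and Mir218 in the lower left. Some other pairs, such as Mirlet7f, lie nearer to the diagonal than these, and some, such as Mir219a, lie far from it.

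Likeness of level was taken as the distance in log2(CPM + 1) over the 2 libraries, which can rank neighbours but not show a shared pattern. The nearest detected gene was Mir770 to Mir128-1 (distance 0.47), Mir181c to Mir128-2 (0.27), Mir1843a to Mir129-1 (0.48) and Mir1839 to Mir129-2 (0.31). It was Mir379 to Mir138-1 (0.47), Mir671 to Mir138-2 (0.33), Mir144 to Mir218-1 (0.19) and Mir664 to Mir218-2 (0.45). No gene was the nearest to both copies of a pair.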

How the data were processed

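The authors deposited 1 table of whole-number read counts per miRNA gene for each of the 2 libraries, and per the deposited text beside the tables these are on mm10 with GENCODE M21. The sources used here do not give the aligner, the trimming or how reads were assigned. Column 3, the strand with most reads, was the main count, with column 2 taken as unstranded and column 4 as the other strand, from their values. Rows naming no gene stayed out of totals: reads matching several places made up 41.9% and 46.4% of reads, unmapped reads 17.1% and 17.2%, and reads outside miRNA genes 5.56% and 5.17%.

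All 2202 identifiers matched GENCODE M21. CPM were computed over the gene rows, where a count of 0 allows up to 3 counts (0.547 and 0.703 CPM). Copies were compared with edgeR 4.0.16 (quasi-likelihood, design library plus copy, common dispersion without trend) over the 24 of 43 2-copy pairs with at least 10 counts, libraries with Fisher's exact and exact binomial tests (scipy 1.17.1), each adjusted by Benjamini-Hochberg and called at 0.05. Scripts were tested on simulated data. limma 3.58.1 and DESeq2 1.42.0 were alternatives. Intervals of shares and library ratios are exact Clopper-Pearson at 95%, and those of odds ratios are exact conditional intervals at 95%. They cover counting error only, because each side is a single library. Copies made by PCR are not independent molecules, so even the counting error may be larger than shown. TMM and DESeq2 scaling used the 579 genes tested.

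Reads of CAST/EiJ alleles that differ from mm10 were not separated. The members and lists were chosen with earlier results of these data known. The genes named are the 8 members, their nearest genes, the neuron-enriched list, the 6 other pairs with the highest summed CPM, and hosts or overlapping genes. Some genes of the other lists and some other pairs are named as well, chosen after their values were seen. The other lists were oligodendrocyte, microglia and immune, endothelial and mural, erythroid, choroid plexus and ciliated, epithelial, caudal and striated muscle.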

Additional observations from a re-analysis of the deposited data

Results flagged for a closer look

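Mir129-2 had 9 counts on the other strand in replicate 1, above the 3 that a count of 0 allows, and 3 in replicate 2, in a column that the comparisons do not use. Mir129b, annotated there on that strand, had the same 9 and 3 counts on its own strand. No other member had a count on the other strand in either library.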

How the results depend on the processing

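The direction of each copy ratio was kept under every alternative run but 1: with counts without strand, where Mir129b takes the reads of Mir129-2 out, the log2 ratio of Mir129 turned from -2.25 to 7.38. The difference in its copy-1 share then fell to 0.102 points and did not pass. Without the replicate block, that is with the pairing of copies within a library ignored, the log2 ratios of 1.92 for Mir128, -2.43 for Mir129 and -3.14 for Mir218 no longer passed (adjusted p 0.167, 0.171 and 0.113), and 5 pairs passed in place of 11. No paired analysis was possible beyond this block because there is a single group of samples. Mir138 passed with DESeq2 (1.31) and without strand (1.31), and missed the threshold in the others. DESeq2 called 19 pairs. From a single library, with no test, the log2 ratio was 1.77 to 2.23 for Mir128, -2.54 to -1.95 for Mir129, 1.09 to 1.53 for Mir138 and -3.18 to -2.97 for Mir218. Library ratios of the members kept direction and call in 39 of 40 alternatives, and in 1, Mir129-2 without strand, the call was lost. Mir487b reversed, to -0.11 with TMM, -0.13 with DESeq2 size factors and -0.012 with all reads. Depth limits Mir218-1 most, at 33 counts in replicate 2. The causes were not tested, except where the column itself shows it.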

Other observations

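A pattern noticed after the values were seen is that copy 2 moved further than copy 1 between the libraries in 4 of 4 pairs, in the direction of its pair. The log2 ratio of replicate 2 over replicate 1 was 0.91 for Mir128-1 and 1.37 for Mir128-2, and -1.83 for Mir129-1 and -2.42 for Mir129-2. It was -1.26 and -1.71 for Mir138-1 and Mir138-2, and -1.44 and -1.73 for Mir218-1 and Mir218-2. Copy 2 is the more abundant in Mir129 and Mir218 and the less abundant in Mir128 and Mir138, so the copy that moved further was not always the lesser. Among the 20 other pairs copy 2 moved further in 8. The copy number is only a name, and with 2 libraries these are values without a test.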
